A study of Mus musculus with 622 samples.

Results

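The Slc25 family of mitochondrial carriers was followed through the first days of mouse development, from the late 2-cell stage to the compacted morula. All 47 genes whose symbol is Slc25a followed by a number were taken from the 23845 genes of the embryo count tables. Slc25 proteins sit mostly in the inner mitochondrial membrane, where each moves a particular metabolite, nucleotide, cofactor or ion between the cytosol and the matrix. The ADP/ATP carriers and the phosphate carrier serve ATP synthesis, and the carboxylate, amino acid and acylcarnitine carriers link cytosolic and matrix metabolism. The cleaving embryo inherits its mitochondria and many of their transcripts from the oocyte, and turns from pyruvate use to glucose use as it reaches the morula and blastocyst.

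The study injected about 53 fL of solution into the cytoplasm of mouse zygotes and sequenced single embryos by SMART-Seq, a method for polyadenylated RNA that keeps no strand. The solution carried either miR-200c-3p or miR-465c-3p, each a synthetic microRNA, and control embryos received GFP. Mice were FVB/NJ, with females 5 to 7 weeks old and males 8 to 12 weeks old. Parthenotes came from oocytes activated without sperm by SrCl2 with EGTA and cytochalasin B, and hold only maternal genomes, while IVF embryos were fertilized in vitro. Late 2-cell embryos were collected 28 hours after activation or fertilization, 4-cell embryos after 46 hours, and compacted morulae after 70 hours.

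Parthenotes of the miR-200c experiment, called the first series here, numbered 28 controls, 26 at the low dose and 23 at the mid dose among 2-cell embryos. Among 4-cell embryos there were 24 controls with 23, 22 and 24 at the low, mid and high doses, and among morulae 20 controls with 24, 19 and 19. Parthenotes of the miR-465c experiment, the second series, numbered 22 controls and 21 injected among 2-cell embryos, at a dose the labels do not give. Among 4-cell embryos there were 23 controls with 24 at the low and 16 at the high dose, and among morulae 22 controls with 29 and 28. IVF embryos received miR-200c at a dose that is not given, with 21 of each kind among 4-cell embryos and 23 of each among morulae. The low dose was about 200 molecules, and the amounts of the mid and high doses are not given.

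Each library was 1 embryo, taken from pooled litters. Per the labels, about 8 embryos per group came from each experimental day, over usually 3 and at fewest 2 days. The day of an embryo is not given. The spread between libraries therefore holds differences between embryos and between days, and the tests treat each embryo as a replicate. The 525 libraries held from 404357 to 6774824 expected counts with a median of 3118638, and 7 of them held fewer than 1000000. Levels below are CPM (each gene's share of the library's counts, scaled to a fixed total) after 1 scaling over all embryos, and CPM per kilobase of the longest annotated transcript where genes are compared with each other. In whole embryos, a change in the number of cells and a change in the RNA of each cell cannot be told apart, and a level is a share of the library, not an amount per embryo. Each stage of each series is its own count table, so stage and table cannot be told apart within a series. The stage markers followed the labels. The 4 oocyte transcripts examined (Gdf9, Bmp15, Zp3 and Mos) summed to medians of 1951 and 1117 CPM in the 2-cell parthenotes of the first and second series, to between 86.3 and 161 at the 4-cell stage, and to between 10.0 and 15.6 in morulae. The cumulus cell transcripts Has2, Ptx3, Cyp19a1, Amh and Inhba summed to at most 20.7 CPM in any control embryo. A count for a Y-linked transcript was found in 0 of the 437 parthenotes and in 44 of the 88 fertilized embryos.

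A total of 38 carriers passed the filter on low counts among the 183 control embryos, and 9 did not. The 9 were the ornithine carrier relative Slc25a2, the glutamate carrier Slc25a18, the basic amino acid carrier Slc25a29, the uncoupling protein relative Slc25a27, the iron carrier mitoferrin 1 (Slc25a37), and Slc25a34, Slc25a45, Slc25a47 and Slc25a54. Their mean levels over all controls lay between 0.00238 and 1.35 CPM. Slc25a54 had a count in 1 of the 183 embryos and Slc25a27 in 3, while Slc25a37 had one in 48. Averaged over all controls, the mitoferrin transcript was mainly mitoferrin 2 (Slc25a28), at 13.5 CPM against 0.584 CPM for Slc25a37. Slc25a28 had a median of 24.2 CPM in the 2-cell parthenotes of the first series, and it fell at later stages, as given below.

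The family as a whole took a growing share of the library. Summed over the 47 genes, control parthenotes of the first series had a median of 2083 CPM (1172 to 2781) at the 2-cell stage, 3679 (2883 to 5091) at the 4-cell stage and 5755 (3643 to 7376) at the morula. The second series had medians of 2627, 4608 and 5837 CPM at the same stages. IVF embryos had medians of 4073 at the 4-cell stage and 4540 at the morula. The increase came with a concentration on few carriers. The 5 most abundant genes per kilobase made up 55.9% and 59.9% of the family in 2-cell embryos of the first and second series, 71.4% to 72.4% in the 3 groups of 4-cell embryos, and 83.1% to 88.4% in morulae.

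The order of the carriers changed with stage. In 2-cell parthenotes of the first series, the ADP/ATP carrier Slc25a5 averaged 134.9 CPM per kilobase, the phosphate carrier Slc25a3 averaged 123.8 and the branched-chain amino acid carrier Slc25a44 averaged 104.9. In the second series Slc25a44 stood first at 180.6, followed by Slc25a3 at 163.7 and the ATP-Mg/phosphate carrier Slc25a25 at 119.6. The ranges of these leading carriers over embryos overlapped. At the 4-cell stage Slc25a3 and Slc25a5 led in all 3 control groups, with Slc25a3 between 534.2 and 660.9 CPM per kilobase. In morulae Slc25a5 led in every group, at 1910 and 2024 CPM per kilobase in parthenotes and 1062 in IVF embryos. Slc25a3, the second ADP/ATP carrier Slc25a4 and the glutathione carrier Slc25a39 followed in that order.

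**Figure D1:**
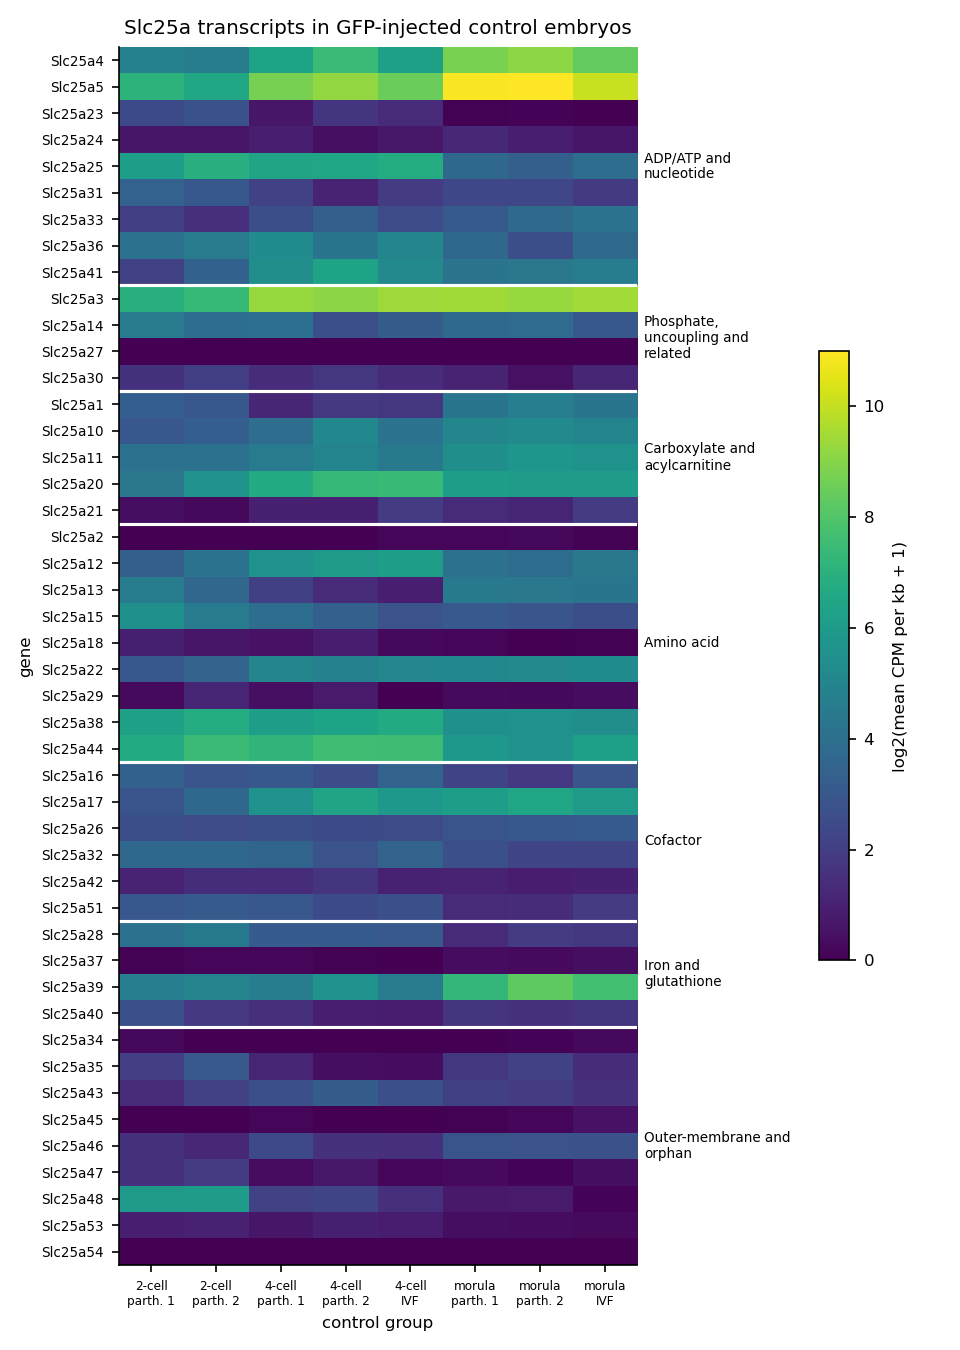
Mean level of the Slc25a genes reported here in the 8 control groups, as log2 of mean CPM per kilobase plus 1 (colour), with genes grouped by transported substrate; parth. 1 and parth. 2 are the first and second parthenote series. Slc25a5 and Slc25a3 brighten from the 2-cell stage, and Slc25a48 and Slc25a25 darken towards the morula.

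Adenine nucleotide and phosphate exchange is the part of the family with the highest levels. Slc25a5, on chromosome X from 36795597 to 36798808 (mm10), encodes the ADP/ATP carrier of most proliferating cells. Its level in control parthenotes of the first series ran from 65.2 to 285 CPM at the 2-cell stage (median 167), from 187 to 935 at the 4-cell stage (median 578) and from 1015 to 3608 at the morula (median 2462). The second series had medians of 119, 815 and 2395 CPM, and IVF embryos had 487 at the 4-cell stage and 1323 at the morula. No 4-cell embryo reached the level of any morula of its own series or type. From 2-cell to 4-cell, Slc25a5 rose by 1.7 ± 0.16 on the log2 scale (SE) in the first series and by 2.71 ± 0.18 in the second (edgeR quasi-likelihood, adjusted p = 4.48e-20 and 6.46e-32). From 4-cell to morula it rose by 2.22 ± 0.17, 1.81 ± 0.17 and 1.60 ± 0.17 in the first series, the second series and IVF embryos.

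Slc25a4 (chromosome 8, 46207168 to 46211062), the ADP/ATP carrier of heart and skeletal muscle, followed the same course at a lower level. Its medians were 35.3 and 24.3 CPM in 2-cell parthenotes, 90.1 and 206 at the 4-cell stage, and 589 and 726 at the morula. It rose by 1.64 ± 0.26 and 3.00 ± 0.30 from 2-cell to 4-cell and by 2.43 ± 0.29 and 1.67 ± 0.28 from 4-cell to morula in the first and second series. Per kilobase, Slc25a5 made up a median of 76.8% to 85.7% of the ADP/ATP carrier transcripts in all 8 control groups, and Slc25a4 13.6% to 23%. Reads that match both of these close paralogs were divided between them by RSEM.

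Slc25a31 (chromosome 3, 40708871 to 40726094), the ADP/ATP carrier best known from male germ cells, went the other way. Its median was 18.99 CPM (0.341 to 52.9) and 15.6 CPM (0 to 35.5) in 2-cell parthenotes of the first and second series, and 3.10 and 0.248 CPM at the 4-cell stage. The groups overlapped, since some 4-cell embryos still held up to 37.6 CPM. It fell by 1.43 ± 0.57 and by 2.56 ± 0.63 on the log2 scale (adjusted p = 0.0199 and 0.000157). At the morula its median was 6.96 CPM in the first series and 7.08 CPM in the second, where the rise of 1.81 ± 0.61 from the 4-cell stage passed the threshold (adjusted p = 0.00784).

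The phosphate carrier Slc25a3 (chromosome 10, 91116574 to 91124046) brings in the phosphate that ATP synthase uses, and it was called at the first step but not at the second. Control parthenotes of the first series ran from 14.99 to 707 CPM at the 2-cell stage (median 132) and from 509 to 1338 at the 4-cell stage (median 945). The second series had medians of 227 and 807 CPM. Slc25a3 rose by 2.39 ± 0.16 and 1.77 ± 0.18 (adjusted p = 9.38e-31 and 5.81e-18). At the morula the medians were 1022, 967 and 1108 CPM in the first series, the second series and IVF embryos. The differences from the 4-cell stage were 0.18 ± 0.17, 0.25 ± 0.17 and 0.11 ± 0.17, with adjusted p of 0.369, 0.205 and 0.62.

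**Figure D2:**
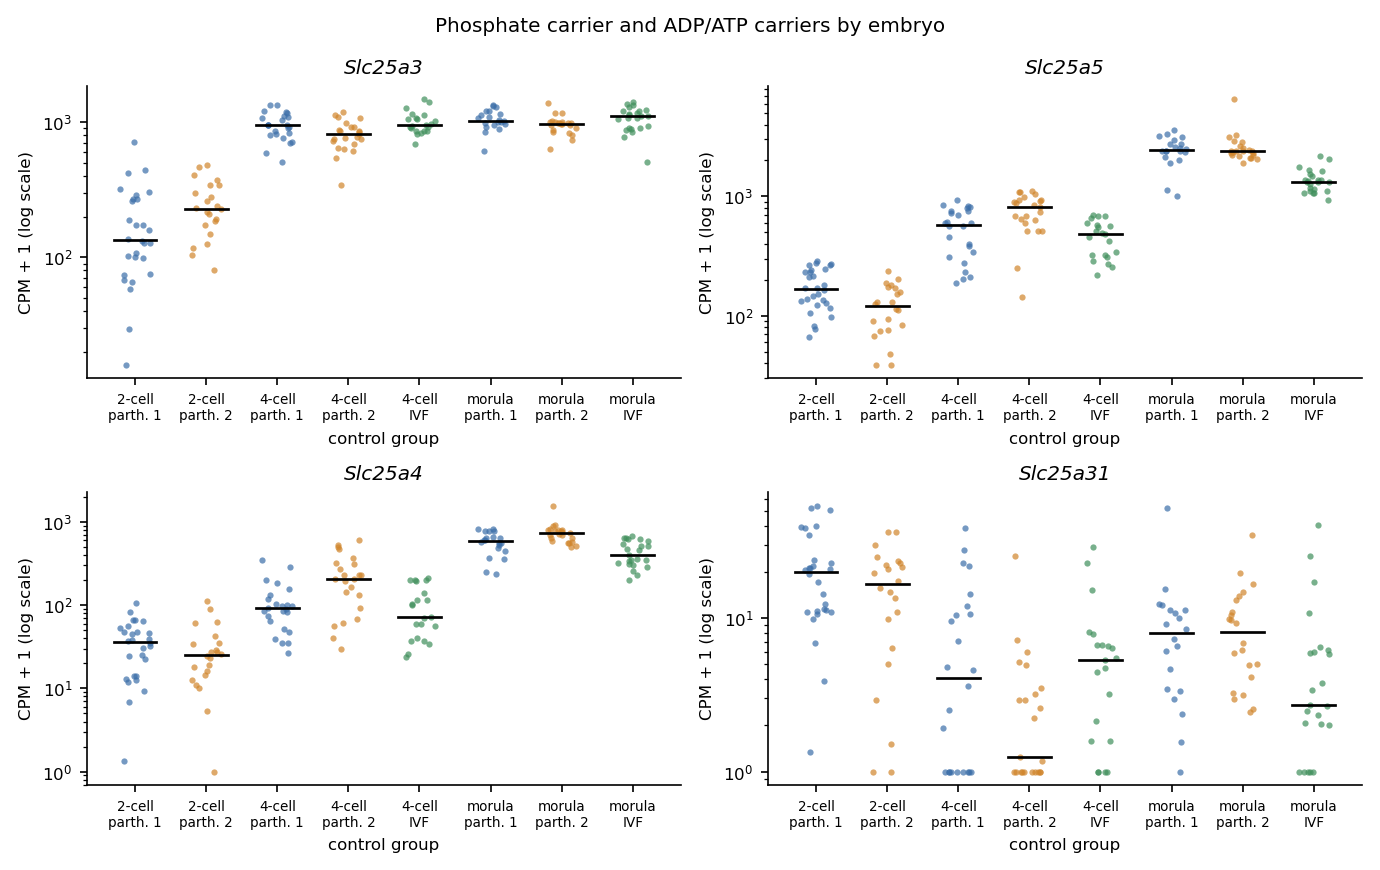
Level of the phosphate carrier Slc25a3 and the ADP/ATP carriers Slc25a5, Slc25a4 and Slc25a31 in each control embryo (points, CPM plus 1 on a log axis) with the group median (bar), for the 8 control groups. Slc25a5 keeps climbing to the morula, Slc25a3 differs little between the 4-cell stage and the morula, and Slc25a31 is highest in 2-cell embryos.

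Across all carriers, the step from 2-cell to 4-cell was called for most genes in either direction. In the first series 15 of the 38 tested carriers rose and 8 fell, beside a background of 69.7% of all 13027 tested genes called, 34.3% higher and 35.5% lower. In the second series 14 rose and 11 fell, beside 66.1% called, 31.1% higher and 35% lower. Carriers called in the same direction in both series numbered 12 higher and 7 lower, beside 26.1% and 28% of all genes. The family's median change was 0.22 in the first series and -0.13 in the second, against -0.06 and -0.14 over all genes. A different scaling moved these splits. With median-ratio factors (edgeR's RLE), all genes shifted by a median of -0.43 in the first series and -0.29 in the second relative to TMM, and the split in the first series became 11 higher and 13 lower. No called carrier turned sign. For this and later RLE splits, the share of all genes called is not given.

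Among nucleotide carriers, Slc25a41 showed the largest rise averaged over both series. It encodes the ATP-Mg/phosphate carrier that lacks a calcium-binding domain. Its median was 0.190 CPM (0 to 31.6) in 2-cell embryos of the first series and 41.6 CPM (9.95 to 138) at the 4-cell stage, and it rose by 3.65 ± 0.44 (adjusted p = 3.02e-13). In the second series the medians were 3.76 and 97.1 CPM, and the rise was 3.09 ± 0.47. The pyrimidine nucleotide carrier Slc25a33 also rose, by 0.82 ± 0.36 and 2.38 ± 0.41. Its relative Slc25a36 was called only in the first series. The calcium-regulated ATP-Mg/phosphate carrier Slc25a23 fell by 2.91 ± 0.60 and 1.36 ± 0.59, from medians of 15.1 and 17.3 CPM to 0.709 and 2.73 CPM, and its call in the second series was lost when only those 2 groups were fitted (adjusted p = 0.0674). Of the 9 nucleotide carriers tested, 4 rose and 2 fell in both series, beside 26.1% and 28% of all genes.

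The aspartate/glutamate carriers of the malate-aspartate shuttle moved in opposite directions. Slc25a12 (aralar, chromosome 2, 71274270 to 71367781) had medians of 29.4 and 55.5 CPM in 2-cell parthenotes and 147 and 208 CPM at the 4-cell stage, and rose by 2.44 ± 0.28 and 1.87 ± 0.30 (adjusted p = 2.83e-14 and 2.04e-08). Slc25a13 (citrin, chromosome 6, 6041218 to 6217304) fell by 2.79 ± 0.41 and 2.76 ± 0.43, from medians of 76.0 and 29.6 CPM to 6.63 and 2.60 CPM. The lowest and highest embryos of the stages overlapped for both genes. Per kilobase, Slc25a12 made up a median of 27.3% of the pair in 2-cell embryos of the first series and 93.8% at the 4-cell stage, and 54.3% and 98.3% in the second series. Among other amino acid carriers, the glutamate carrier Slc25a22 rose by 2.23 ± 0.30 and 1.43 ± 0.32. The ornithine carrier Slc25a15 of the urea cycle fell by 1.56 ± 0.27 and 1.16 ± 0.28, from a first-series median of 155 CPM (18.7 to 304) to 43.2 (9.89 to 99.6).

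Of the 5 carboxylate and acylcarnitine carriers, 3 rose in both series and none fell in both, beside 26.1% and 28% of all genes. Slc25a20, which brings acylcarnitines in for fatty acid oxidation, had a median of 29.02 CPM (0 to 110) in 2-cell embryos of the first series and 181 CPM (71.3 to 328) at the 4-cell stage. It rose by 2.47 ± 0.22 in the first series and by 1.76 ± 0.24 in the second. The dicarboxylate carrier Slc25a10 rose by 1.08 ± 0.34 and 2.00 ± 0.38 and the oxodicarboxylate carrier Slc25a21 by 1.54 ± 0.57 and 2.38 ± 0.63. Slc25a21 shares 6.91% of its exon bases with Pax9 on the opposite strand, so their reads cannot be told apart there. The citrate carrier Slc25a1 fell in the first series, by 2.68 ± 0.66 (adjusted p = 0.000149), and its change of -1.37 ± 0.65 in the second had an adjusted p of 0.0553.

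Of 7 cofactor carriers, Slc25a17 was the 1 called in the same direction in both series, beside 26.1% of all genes higher and 28% lower. It is the carrier of coenzyme A, FAD and NAD of peroxisomes, and so a family member outside mitochondria. Its medians were 5.92 and 18.2 CPM in 2-cell parthenotes and 80.9 and 127 CPM at the 4-cell stage, and it rose by 3.00 ± 0.28 and 2.81 ± 0.31 (adjusted p = 1.17e-19 and 1.55e-15). Mitoferrin 2 (Slc25a28) fell by 0.92 ± 0.40 and 1.3 ± 0.42. Slc25a40, a close relative of the glutathione carrier Slc25a39, fell by 1.59 ± 0.57 and 1.44 ± 0.59, with an adjusted p of 0.0799 in the second series when only those 2 groups were fitted. Slc25a43, which has no assigned substrate, rose by 1.84 ± 0.53 and 1.38 ± 0.57.

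The deepest fall, averaged over both series, was that of Slc25a48 (chromosome 13, 56437960 to 56472367), a carrier linked to choline transport. Control parthenotes held from 13.3 to 234 CPM (median 85.4) in the first series and from 28.4 to 251 CPM (median 84.0) in the second among 2-cell embryos. At the 4-cell stage they held from 0 to 28.3 CPM (median 1.94) and from 0 to 17.7 CPM (median 5.85). The groups did not overlap in the second series and overlapped in the first. Slc25a48 fell by 4.05 ± 0.56 and 4.03 ± 0.58 on the log2 scale (adjusted p = 6.45e-11 and 3.75e-10), and it was at a median of 0 CPM in morulae of the first series and of IVF. In the same embryos the summed oocyte markers fell from medians of 1951 and 1117 CPM to 161 and 153 CPM. Their part in the fall was not tested.

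**Figure D3:**
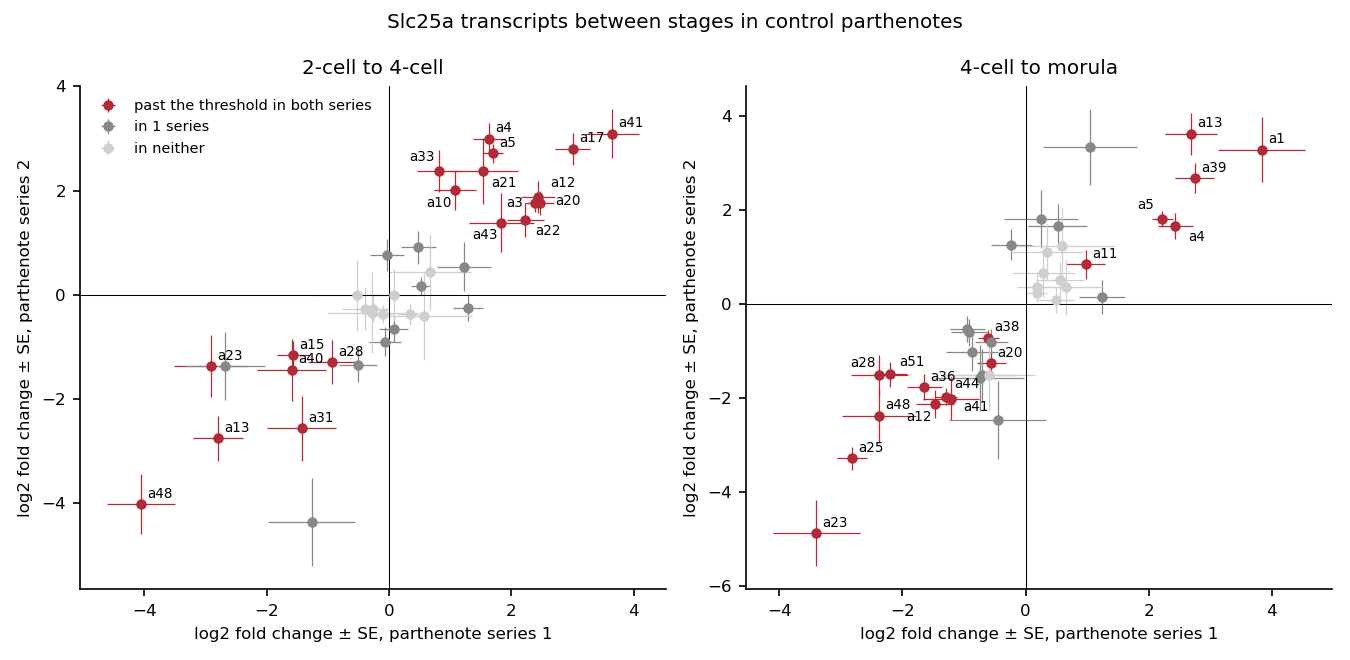
Log2 fold change with its SE for each tested Slc25a gene in the first (horizontal) and second (vertical) parthenote series, from 2-cell to 4-cell (left) and from 4-cell to morula (right), with genes past the adjusted p threshold of 0.05 in both series in red and named without the prefix Slc25, those past it in 1 series in dark grey and the others in light grey. Genes called in both series lie at the upper right and lower left of each panel.

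From the 4-cell stage to the morula, 7 carriers rose and 13 fell in the first series beside 54.8% of all genes called, 25.8% higher and 29% lower. In the second series 10 rose and 16 fell, beside 55.7% called, 26.9% higher and 28.8% lower. In IVF embryos 9 rose and 14 fell, beside 53.6% called, 28.3% higher and 25.3% lower. In both parthenote series 6 were higher and 11 lower, beside 19.8% and 23% of all genes. With RLE factors the splits became 9 higher and 11 lower, 12 and 13, and 12 and 12, with all genes shifted by 0.21, 0.19 and 0.29.

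The risers were Slc25a5 and Slc25a4, described above, and Slc25a1, Slc25a13, Slc25a39 and Slc25a11. Slc25a1, which exports citrate for lipid synthesis, had 4-cell medians of 0.136, 0 and 2.35 CPM in the first series, the second series and IVF embryos, and morula medians of 24.7, 32.9 and 22.2 CPM. It rose by 3.84 ± 0.71, 3.29 ± 0.69 and 3.01 ± 0.71. Slc25a13 reached medians of 61.0, 62.2 and 54.4 CPM and rose by 2.68 ± 0.42, 3.63 ± 0.44 and 4.41 ± 0.48. Slc25a39 (chromosome 11, 102402969 to 102408675), the glutathione carrier, rose by 2.75 ± 0.32, 2.68 ± 0.32 and 3.18 ± 0.34. Its morulae held from 105 to 369 CPM, from 317 to 1279 CPM and from 194 to 469 CPM, and the groups did not overlap with the 4-cell embryos in the second series and in IVF embryos. The oxoglutarate/malate carrier Slc25a11, which shares 11.4% of its exon bases with Rnf167 on the opposite strand, rose by 0.98 ± 0.32, 0.85 ± 0.31 and 1.24 ± 0.32. The summed trophectoderm markers Cdx2, Krt8, Krt18 and Tfap2c had medians of 259, 326 and 293 CPM at the 4-cell stage and 2770, 2739 and 1372 CPM in morulae, and their part was not tested. Tfap2c alone was lower in morulae, with medians of 192, 204 and 214 CPM against 232, 322 and 288 CPM.

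Among the fallers, Slc25a12 gave back its rise. Its medians fell to 32.6, 41.1 and 51.8 CPM, by 1.47 ± 0.31, 2.12 ± 0.31 and 1.77 ± 0.30 on the log2 scale, and Slc25a13 made up a median of 68.7%, 59.7% and 49.9% of the pair per kilobase. The ATP-Mg/phosphate carrier Slc25a25 (chromosome 2, 32414487 to 32451470) kept medians between 236 and 441 CPM in the 5 groups of 2-cell and 4-cell embryos, with differences of 0.35 ± 0.20 and -0.37 ± 0.21 from 2-cell to 4-cell (adjusted p = 0.114 and 0.115). At the morula its medians were 35.8, 32.7 and 44.4 CPM, and it fell by 2.82 ± 0.24, 3.28 ± 0.24 and 2.82 ± 0.23 (adjusted p = 3.78e-22, 5.54e-28 and 2.78e-23). No morula reached the lowest 4-cell embryo in the first series or in IVF embryos. Slc25a25 shares 6.60% of its exon bases with Naif1 on the opposite strand. Slc25a41 had declined by then to medians of 21.4 and 21.6 CPM in parthenotes, falls of 1.22 ± 0.45 and 2.01 ± 0.45, and was not called in IVF embryos (-0.50 ± 0.44, adjusted p = 0.35).

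**Figure D4:**
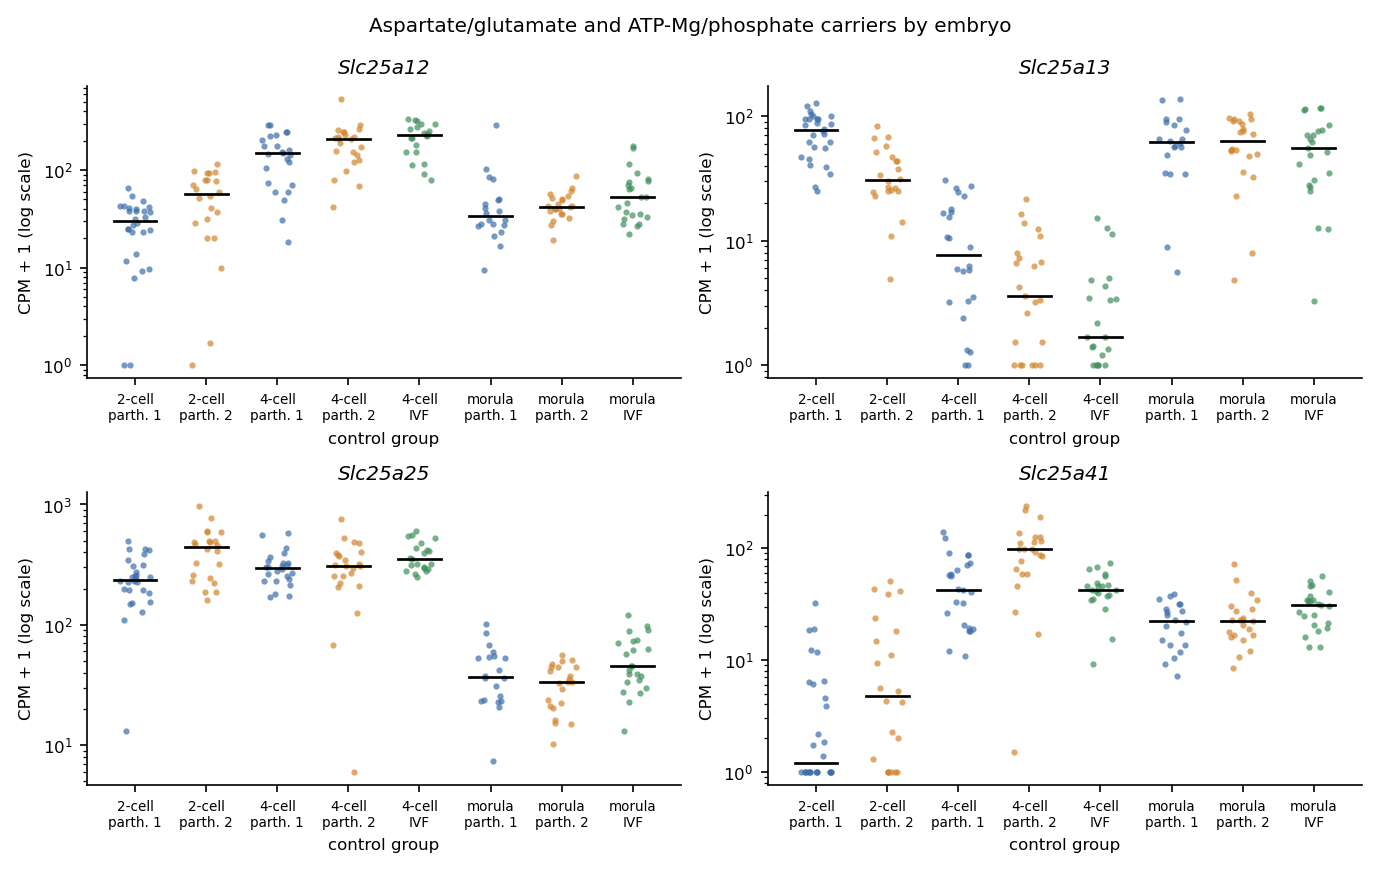
Level of the aspartate/glutamate carriers Slc25a12 and Slc25a13 and of the ATP-Mg/phosphate carriers Slc25a25 and Slc25a41 in each control embryo (points, CPM plus 1 on a log axis) with the group median (bar). Slc25a12 peaks at the 4-cell stage where Slc25a13 is lowest, and Slc25a25 drops between the 4-cell stage and the morula.

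The other fallers in both series included Slc25a23, which was at a median of 0 CPM in all 3 groups of morulae after falls of 3.40 ± 0.70, 4.87 ± 0.71 and 5.52 ± 0.76. These falls began from a low level. At the 4-cell stage Slc25a23 made up a median of 0.159%, 0.525% and 0.998% of the ATP-Mg/phosphate carrier transcripts per kilobase. Slc25a48 fell further, by 2.38 ± 0.61, 2.37 ± 0.57 and 4.63 ± 0.77, and mitoferrin 2 (Slc25a28) by 2.37 ± 0.46, 1.5 ± 0.43 and 1.59 ± 0.44. The NAD carrier Slc25a51 (chromosome 4, 45395923 to 45408917) fell from medians of 29.7, 20.5 and 23.3 CPM to 6.74, 6.74 and 11.1 CPM, by 2.19 ± 0.27, 1.49 ± 0.26 and 0.90 ± 0.26. Slc25a44, the leading carrier of 2-cell embryos of the second series, fell by 1.29 ± 0.17, 1.97 ± 0.17 and 1.35 ± 0.17. Slc25a36, Slc25a38 (the glycine carrier of haem synthesis) and Slc25a20 completed the list. Slc25a36 morulae of the first series, at 18.4 to 59.5 CPM, all lay below its 4-cell embryos, at 64.0 to 218 CPM.

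Other genes of mitochondrial transport were tested at the same steps, where 26.1% of all genes rose and 28% fell in both series from 2-cell to 4-cell, and 19.8% rose and 23% fell from 4-cell to morula. Of 9 tested genes of the import machinery that inserts carriers into the inner membrane, 8 rose in both series from 2-cell to 4-cell, and none was called in both from 4-cell to morula. The receptor gene Tomm70a rose by 3.20 ± 0.34 and 3.03 ± 0.37, the insertase gene Timm22 by 3.01 ± 0.29 and 2.61 ± 0.31, the pore gene Tomm40 by 2.53 ± 0.20 and 2.00 ± 0.22, and the receptor gene Tomm20 by 2.08 ± 0.18 and 2.08 ± 0.20. Of 20 other tested transport genes, 6 rose and 4 fell in both series at the first step, and 6 rose and 3 fell at the second. The calcium uniporter gene Mcu fell at each, from 2-cell medians of 338 and 221 CPM to 17.8 and 16.1 CPM at the 4-cell stage and 1.45 and 4.82 CPM at the morula. Its regulator Micu2 fell with it at the first step, by 2.9 ± 0.49 and 2.94 ± 0.51, and Sfxn4 by 0.72 ± 0.31 and 1.33 ± 0.33. The sodium/calcium exchanger gene Slc8b1 rose by 5.47 ± 0.46 and 3.40 ± 0.46, and the pyruvate carrier subunit Mpc2 by 1.88 ± 0.17 and 1.61 ± 0.18. Mtch2, an outer-membrane insertase, rose by 1.61 ± 0.18 and 1.41 ± 0.19. The serine carrier gene Sfxn1 had no count in any 2-cell embryo of the second series and medians of 6.94 and 6.88 CPM at the 4-cell stage. At the second step the porin genes Vdac2 and Vdac3 rose by 2.08 ± 0.32 and 2.79 ± 0.33 and by 1.21 ± 0.20 and 1.5 ± 0.20. Abcb8 rose by 2.36 ± 0.52 and 2.24 ± 0.52 and Letm1 by 2.21 ± 0.27 and 1.90 ± 0.27, while Mpc2 fell by 0.87 ± 0.18 and 1.37 ± 0.18 and Mpc1 by 0.54 ± 0.15 and 0.62 ± 0.15.

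The parthenote series also differed from each other at matched stages. At the 2-cell stage 9 carriers were higher and 3 lower in the second series, beside 26.4% of all genes called, 12.8% higher and 13.6% lower. At the 4-cell stage 9 were higher and 5 lower, beside 26.9%, with 10.9% higher and 16.1% lower. At the morula 1 carrier differed, beside 3.82%, with 0.676% higher and 3.14% lower. It was Slc25a36, lower by 1.20 ± 0.28 in the second series (adjusted p = 0.00243). The acylcarnitine carrier Slc25a20 showed the smallest adjusted p at the 2-cell stage, with medians of 29.02 and 95.7 CPM and a difference of 1.32 ± 0.22 (adjusted p = 7.03e-07). Slc25a5 was lower in the second series at the 2-cell stage (-0.53 ± 0.16, adjusted p = 0.00779) and higher at the 4-cell stage (0.48 ± 0.16, adjusted p = 0.0183). Series and experiment cannot be told apart.

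Changes between stages differed between the series in a test of the difference itself for 5 carriers at the first step, beside 14.6% of all genes. Slc25a5 and Slc25a4 rose by 1.01 ± 0.23 and 1.35 ± 0.39 more in the second series, and Slc25a33 by 1.56 ± 0.54 more. The last was lost with embryo numbers taken in bands (adjusted p = 0.08). Slc25a36 changed by -1.54 ± 0.36 and the orphan carrier Slc25a35 by -3.10 ± 1.04 relative to the first series. At the second step only the uncoupling protein relative Slc25a14 differed, by 1.5 ± 0.47 (adjusted p = 0.0474), beside 3.74% of all genes. With embryo number as a block, Slc25a33, Slc25a35 and Slc25a14 were not called (edgeR adjusted p = 0.1, 0.0893 and 0.112).

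IVF embryos were compared with the control parthenotes of each series at matched stages. At the 4-cell stage 2 carriers were higher and 2 lower in IVF embryos than in the first series, beside 15.8% of all genes called, 4.34% higher and 11.5% lower. Against the second series 3 were higher and 5 lower, beside 22.1%, with 10.1% higher and 11.9% lower. None was called against both, beside 1.22% of all genes higher and 4.67% lower against both. With RLE factors, which shifted all genes by -0.11 and -0.20, these splits became 2 higher and 4 lower and 0 higher and 9 lower. Against the first series, Slc25a13 and Slc25a15 were lower (-1.90 ± 0.44 and -1.26 ± 0.28) and Slc25a20 and Slc25a38 higher (0.74 ± 0.23 and 0.57 ± 0.17).

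At the morula, 1 carrier was higher and 2 lower in IVF embryos than in either parthenote series. Against the first series these were all the calls, beside 1.94% of genes, 0.983% higher and 0.96% lower. Against the second, 5 were higher and 2 lower, beside 8.33%, with 6.1% higher and 2.23% lower, and with RLE factors, which shifted all genes by -0.10, 3 were higher and 4 lower. Among all genes, 0.614% were higher and 0.507% lower against both. Slc25a5 was lower in IVF morulae, at 927 to 2176 CPM against 1015 to 3608 and 1896 to 6513 CPM. The differences were -0.86 ± 0.17 and -0.92 ± 0.17 (adjusted p = 0.000605 and 1.3e-05), and the groups overlapped. Slc25a5 lies on chromosome X. A Y-linked count was found in 44 of the 88 fertilized embryos and in 0 of the 437 parthenotes, and the part of embryo sex was not tested. Slc25a48 was detected at up to 1.82 CPM in IVF morulae and up to 6.63 and 6.23 CPM in parthenotes, with differences of -3.12 ± 0.82 and -3.35 ± 0.79 at these low levels. Slc25a51 was higher in IVF morulae, at 5.27 to 24.0 CPM against 0 to 13.4 and 0 to 12.9 CPM, by 0.96 ± 0.27 and 0.86 ± 0.26 (adjusted p = 0.0284 and 0.0184). The summed trophectoderm markers were also lower in IVF morulae, with a median of 1372 CPM against 2770 and 2739 CPM, and their part was not tested. Tfap2c alone was higher there, with a median of 214 CPM against 192 and 204 CPM. Fits of only the 2 groups compared called 7 carriers against the first series and 13 against the second, and in these Slc25a48 did not pass the filter on low counts. The share of all genes called in these fits is not given here. Both comparisons use the same IVF embryos, and fertilization and the experiment it was done in cannot be told apart.

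The change from 4-cell to morula differed between IVF embryos and the first series for Slc25a51 alone, by 1.29 ± 0.37 (adjusted p = 0.0266, beside 3.02% of all genes). It differed from the second series for Slc25a14 alone, by -1.49 ± 0.47 (adjusted p = 0.042, beside 4.74%). Neither carrier was called with embryo number as a block (edgeR adjusted p = 0.0633 and 0.124).

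One control morula of the second series, embryo 24, stood apart, with a summed family level of 11780 CPM where the next embryo had 7153 CPM, and with Slc25a5 at 6513 CPM. It held counts for 9636 genes from a total of 2512964. Without it, as a choice made after seeing the data, 10 carriers rose and 15 fell from 4-cell to morula in that series, all 25 of them among the 26 called with it. The 7 carriers called between IVF and second-series morulae were called without it as well. The share of all genes called without embryo 24 is not given here. With all embryos it was 55.7% for the stage step and 8.33% for the comparison with IVF morulae.

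The injected microRNAs and the carriers that hold a match to them are shown here because they are the sequences by which an effect of the injection on a carrier could act directly. Mature sequences are from RefSeq (GRCm38.p6), with the seed, bases 2 to 8, in capitals. The miR-200c-3p hairpin arm lies at chr6:124718324-124718346 and that of miR-465c-3p at chrX:66825965-66825986, both on the minus strand.
mmu-miR-200c-3p: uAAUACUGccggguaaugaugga
mmu-miR-465c-3p: gAUCAGGGccuuucuaaguaga

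The reverse complement of the miR-200c seed, CAGTATT, was searched on the transcript strand of the longest annotated 3′ UTR of each gene. It was found in 2 of the 47 carriers (4.255%), against 12.332% of 18829 genes. The match to miR-465c, CCCTGAT, was found in 4 carriers (8.511%), against 7.01% of genes. The carriers' median 3′ UTR of 885 bases was close to the 818 bases of all genes. A match is a description of the letters, not evidence of a site in use. In the sequences below, which show 3 of the 4 carriers for miR-465c, the match is in capitals with the bases around it in the direction of the transcript.
Slc25a31, miR-200c match, chr3:40725155-40725183, plus strand: agtgtctcttaCAGTATTtgttctgcaat
Slc25a36, miR-200c match, chr9:97077565-97077593, minus strand: tggagatcttaCAGTATTttaagtatgct
Slc25a16, miR-465c match, chr10:62944605-62944633, plus strand: ggggacgttcgCCCTGATacaggaaccac
Slc25a25, miR-465c match, chr2:32415321-32415349, minus strand: catgtcagccgCCCTGATgagaagaaaac
Slc25a42, miR-465c match, chr8:70184537-70184565, minus strand: gtgtcctgggtCCCTGATcttcttgcttc

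No carrier passed the adjusted p threshold in any of the 15 comparisons of injected with control embryos by edgeR. The background was 0% of all genes in 13 of them and 0.0188% in the 4-cell mid-dose and high-dose comparisons of miR-200c. At an unadjusted p under 0.05, the first series had 0 of 36 tested carriers at the 2-cell low dose (1.21% of all genes) and 5 of 36 at the mid dose (16.6%). At the 4-cell stage it had 1, 2 and 2 of 36 at the low, mid and high doses (3.64%, 6.17% and 4.45%), and at the morula 4, 2 and 4 of 35 (5.44%, 4.92% and 6.73%). IVF embryos had 1 of 30 at the 4-cell stage (2.71%) and 2 of 28 at the morula (3.76%). With miR-465c, the counts were 0 of 34 at the 2-cell stage (0.971%), 2 and 0 of 35 at the 4-cell low and high doses (3.09% and 3.12%), and 6 and 9 of 34 at the morula (5.52% and 10.7%). DESeq2 called 2 carriers at the 2-cell mid dose and 0 in the other 14 comparisons. Among these 14 it called 0.0941% and 0.00941% of all genes at the 4-cell mid and high doses of miR-200c, 0.00942% and 0.0282% at the morula mid and high doses, 0.257% at the morula high dose of miR-465c and 0% in the rest. With no filter on low counts edgeR called between 0 and 6 carriers, with no share of all genes given here. Of these, Slc25a3 and Slc25a44 at the 2-cell mid dose were the only ones that had passed the filter.

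Those 2 carriers were Slc25a3 and Slc25a44. Slc25a3 held from 17.2 to 381 CPM (median 59.0) in the 23 mid-dose embryos, from 32.01 to 443 (median 153) in the 26 low-dose embryos and from 14.99 to 707 (median 132) in the 28 controls. The groups overlapped over most of their range. The mid-dose difference was -1.17 ± 0.30 on the log2 scale (edgeR adjusted p = 0.165, DESeq2 adjusted p = 0.0291), and the low-dose difference was -0.15 ± 0.29. Slc25a44 held from 98.0 to 515 CPM (median 214) at the mid dose, from 64.5 to 686 (median 340) at the low dose and from 80.7 to 721 (median 387) in controls, a mid-dose difference of -0.77 ± 0.21 with the same adjusted p values. Alternative edgeR fits were divided. Both carriers were called with embryo numbers in bands (adjusted p = 0.021 for Slc25a3 and 0.0397 for Slc25a44) and as a block (0.0162 and 0.0247). Neither was called with RLE factors, with only the 2 groups or with libraries over 1000000 counts (adjusted p from 0.137 to 0.163). The share of all genes called in these fits is not given here. DESeq2 called 4.27% of all genes in this comparison. It called 478 genes with all embryos and 135 without mid-dose embryo 26, which was left out after seeing the data, and Slc25a3 and Slc25a44 were then at an adjusted p of 0.0485 (-1.23 ± 0.30 and -0.79 ± 0.22). The 10 most abundant genes took 9.65 ± 2.09% (SD) of the counts in mid-dose embryos and 7.90 ± 1.37% in controls, and the part of this difference in the result was not tested. At later stages with miR-200c the differences of Slc25a3 lay between -0.16 and 0.08, each with an SE of at most 0.10.

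Slc25a48, with the third smallest p at the 2-cell mid dose, was higher by 0.57 ± 0.23 (adjusted p = 0.223), at a median of 126 CPM against 85.4 in controls. In morulae of the first series, Slc25a5 had medians of 2980, 2983 and 3183 CPM at the low, mid and high doses and 2462 CPM in controls, with differences of 0.42 ± 0.13, 0.29 ± 0.14 and 0.32 ± 0.14 (adjusted p = 0.684, 0.95 and 0.689). One low-dose embryo held 11160 CPM. In the second series the medians were 2269 and 2125 CPM at the low and high doses of miR-465c against 2395 in controls, with differences of -0.29 ± 0.11 and -0.26 ± 0.11 (adjusted p = 0.897 and 0.358). The doses of a series share their control embryos. Slc25a12 had medians of 40.0, 30.2 and 29.5 CPM at the low, mid and high doses of miR-200c against 32.6 CPM in control morulae, where 1 control embryo held 286.5 CPM. Its differences were -0.39 ± 0.22, -0.75 ± 0.23 and -0.68 ± 0.23 (adjusted p = 0.806 and 0.55 at the mid and high doses). At the high dose of miR-465c it differed by 0.52 ± 0.21 (adjusted p = 0.34). The glycine carrier Slc25a38, in low-dose and high-dose morulae of miR-200c, differed by -0.25 ± 0.11 and -0.31 ± 0.11 (adjusted p = 0.899 and 0.597).

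The remaining carriers with the smallest unadjusted p in their comparison are given by their differences alone. In morulae these were Slc25a32, the folate and FAD carrier, at the low dose of miR-200c (-0.45 ± 0.18) and the outer-membrane protein gene Slc25a46 at the high dose (0.43 ± 0.16). At the low dose of miR-465c they were Slc25a44 (0.35 ± 0.10, adjusted p = 0.887) and Slc25a31 (-1.06 ± 0.41), and at the high dose Slc25a21 (0.90 ± 0.37). In 4-cell parthenotes they were Slc25a20 at the low dose of miR-200c (0.28 ± 0.14), Slc25a25 and Slc25a5 at the mid dose (-0.32 ± 0.13 and 0.38 ± 0.18), and Slc25a12 and Slc25a38 at the high dose (0.46 ± 0.20 and -0.31 ± 0.15). With miR-465c they were Slc25a38 and Slc25a12 at the low dose (0.50 ± 0.21 and -0.46 ± 0.22). In IVF morulae the coenzyme A carrier Slc25a16 differed by -0.55 ± 0.26. The rule for naming adds, each at an unadjusted p over 0.05, Slc25a39 and Slc25a4 at the 4-cell low dose of miR-200c (-0.59 ± 0.32 and 0.45 ± 0.29), Slc25a44 at the mid dose (-0.21 ± 0.12) and Slc25a4 at the high dose (0.55 ± 0.29). It adds Slc25a24, another ATP-Mg/phosphate carrier, in mid-dose morulae (0.7 ± 0.37) and Slc25a31 in low-dose 4-cell embryos of miR-465c (1.53 ± 0.88). In IVF embryos it adds Slc25a16 and Slc25a22 at the 4-cell stage (-0.40 ± 0.29 and 0.38 ± 0.24) and Slc25a1 at the morula (-0.72 ± 0.41). None of these passed the threshold after adjustment.

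**Figure D5:**
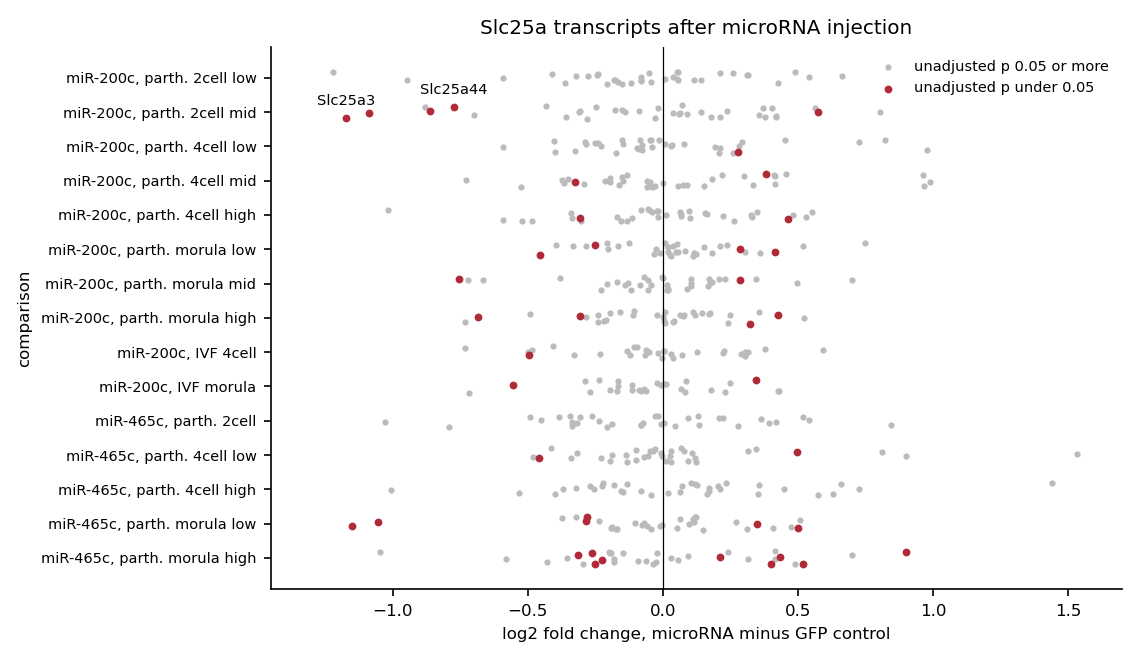
Log2 fold change of each tested Slc25a gene (points) in the 15 comparisons of microRNA-injected with control embryos, with genes at an unadjusted p under 0.05 in red. Slc25a3 and Slc25a44 at the 2-cell mid dose of miR-200c are named, and no gene passed the adjusted threshold with edgeR.

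The carriers with a seed match are given separately. With miR-200c, Slc25a31 and Slc25a36 differed from controls by between -0.86 and 0.43. The lowest value was that of Slc25a36 at the 2-cell mid dose, with a median of 14.6 CPM against 34.4 in controls (-0.86 ± 0.38, unadjusted p = 0.0274, adjusted p = 0.252). With miR-465c, Slc25a16, Slc25a25 and Slc25a42 differed by between -0.41 and 0.73, and the smallest unadjusted p was 0.0489, for a higher Slc25a25 in low-dose morulae (0.50 ± 0.25). Over all genes with a match, the median change in the 15 comparisons lay between -0.05 and 0.08, and over genes without one between -0.039 and 0.032.

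Ago-REMORA, an RNA-editing assay based on the microRNA-binding protein AGO2, was applied to 2-cell parthenotes. Its groups were 15 embryos with a free editor, 23 with AGO2 alone, 27 in which miR-200c was added to AGO2, and 28 in which miR-465c was. The values are the authors' EPKM scores per gene, an abbreviation the sources used here do not spell out. Of the carriers, 14 were listed in the 3′ UTR table and 12 in the coding table, and 5 and 7 passed the filter on low values. None passed the threshold in any of the 6 comparisons. Between AGO2 and free editor, limma called 9.4% of all 3′ UTRs and 4.61% of coding sequences. With miR-200c it called 0% of either, and with miR-465c 0.036% of 3′ UTRs and 0% of coding sequences. At an unadjusted p under 0.05, 0 of 5 and 1 of 7 carriers differed between AGO2 and free editor, beside 23.8% and 16.7% of all genes. The 1 was Slc25a48 in its coding sequence, higher with AGO2 by 0.53 ± 0.24 on the log2(EPKM + 1) scale (limma, adjusted p = 0.231). Slc25a10 and Slc25a16 followed at -0.18 ± 0.14 and 0.19 ± 0.16. The 3′ UTR of the glycine carrier Slc25a38 had a value above 0 in 15 of 15, 23 of 23, 26 of 27 and 23 of 28 embryos, at mean scores of 3.11 ± 2.91, 2.89 ± 2.18, 3.37 ± 2.04 and 2.08 ± 1.6 EPKM (SD) in the order above. Its difference on the log2 scale was -0.05 ± 0.26 between AGO2 and free editor, 0.22 ± 0.22 with miR-200c and -0.35 ± 0.22 with miR-465c.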

How the data were processed

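Each library was 1 embryo, and per the labels about 8 embryos per group came from each experimental day, with the day of an embryo not given. The authors' expected counts per gene were made with RSEM on mm10, per the labels; 4.05% of the deposited values were not whole and were rounded. The submitters' processing notes also name cutadapt, FastQC, STAR, featureCounts, R 4.5.1 and DESeq2 1.48.2, and reads were 50 bp. The deposited Ago-REMORA tables hold the authors' EPKM score per gene, whose computation is not given in the sources used here. It was used on a log2(EPKM + 1) scale, which understates changes of low values. Its depth is unknown, and 3 columns in each table carry no sample's title and were left out. The 525 count libraries, with no near-identical pair (correlation over 0.9999), were scaled once by TMM for levels. Lengths, positions and sequences are from RefSeq (GRCm38.p6).

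Tests used edgeR 4.0.16 (quasi-likelihood, TMM, filterByExpr) in R 4.3.3, with 1 fit per stage table for injected against control embryos and 1 fit of all 183 control embryos for stages and embryo types. Editing was tested with limma 3.58.1 on values above 0 in at least 20% of embryos. P-values are two-sided and Benjamini-Hochberg adjusted over all tested genes, with a threshold of 0.05, and ± after a log2 difference is its SE. For edgeR this SE was derived from the test, as the absolute difference divided by the square root of its F statistic. DESeq2 1.42.0, RLE factors, no low-count filter, fits of only the groups compared, embryo number as a replicate block or in bands of 8, libraries over 1000000 counts, a pseudocount of 0.1 and no low-value filter for EPKM were alternatives. The scripts were tested on simulated data. The carriers, lists and tests were chosen with earlier results of these data known. Named are Slc25a3, Slc25a4, Slc25a5 and Slc25a31 throughout, up to 6 carriers in each direction per stage step called in both series, up to 4 per direction for embryo type and for the transport lists, up to 3 per direction for differences between changes, and for injection and editing those called or, where any had an unadjusted p under 0.05, the 3 smallest. Others named were chosen after their values were seen. Figures were drawn with matplotlib 3.10.9. Some genes of these lists enter the counts and tests but are not reported here by name.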

Additional observations from a re-analysis of the deposited data

Results flagged for a closer look

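For 8 results the change between stages differed between embryo groups in a test of the difference itself. From 2-cell to 4-cell, the change in the second parthenote series minus that in the first was 1.011 ± 0.23 for Slc25a5 (edgeR adjusted p = 0.000566), 1.355 ± 0.39 for Slc25a4 (adjusted p = 0.00759) and 1.559 ± 0.54 for Slc25a33 (adjusted p = 0.0329) on the log2 scale. It was -1.54 ± 0.36 for Slc25a36 (adjusted p = 0.000948) and -3.098 ± 1.04 for Slc25a35 (adjusted p = 0.0281), whose 4-cell medians were 0 CPM in both series. From 4-cell to morula it was 1.498 ± 0.47 for Slc25a14 (adjusted p = 0.0474), whose 4-cell median was 16.8 CPM in the first series and 8.65 CPM in the second. The change in IVF embryos minus that in the first series was 1.293 ± 0.37 for Slc25a51 (adjusted p = 0.0266), and minus that in the second series -1.487 ± 0.47 for Slc25a14 (adjusted p = 0.042). The 2 Slc25a14 results share the second series. With embryo number as a block, Slc25a33, Slc25a35, Slc25a51 and both Slc25a14 results were not called (edgeR adjusted p from 0.0633 to 0.124).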

How the results depend on the processing

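The 5 counts of carriers called at a stage step stayed within 1.5 times under every alternative run. For alternatives other than DESeq2, the share of all genes called is not given here. With no low-count filter, the counts in the injection comparisons became 3 and 6 at the 2-cell low and mid doses of miR-200c, 1 and 3 at the 4-cell mid and high doses, 1 and 1 at the morula mid and high doses, and 4 in IVF 4-cell embryos. With miR-465c they became 2 at the 2-cell stage, 3 and 1 at the 4-cell low and high doses and 1 at the morula high dose, where all were 0 with the filter, and the cause was not tested. Without the filter, 8 carriers differed between IVF and first-series 4-cell embryos and 2 between the series at the morula, and the differences between changes from 4-cell to morula numbered 3 (second against first series), 6 (IVF against first) and 4 (IVF against second). DESeq2 called 2 at the 2-cell mid dose, and also 2 without embryo 26, where edgeR called 0 without that embryo. It called 8 between IVF and first-series 4-cell embryos, beside 2313 of all 13027 genes, and 2 between the series at the morula, beside 640. It called 2 and 3 differences between changes from 4-cell to morula (second against first series, IVF against second), beside 488 and 797 genes. RLE factors gave 2 and 2 for these last. Fits of only the 2 groups compared called 7 and 13 between IVF and parthenote morulae of the first and second series and 2 between the series. Embryo-number bands called 2 at the 2-cell mid dose. Editing of coding sequences without the low-value filter called 1 for AGO2 against free editor.

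The median correlation of same-numbered embryos was at most 0.0883, and single pairs reached 0.524. Among IVF morulae, 11 of 22 pairs were over 0.1. Embryos with different numbers were not compared, so these values cannot decide whether the numbers pair the samples. With the replicate block, 3 carriers were called at the 2-cell mid dose, 3 for the 2-cell to 4-cell difference between series, and 0 for each of the 3 others. Slc25a48 at the mid dose was then 0.93 (adjusted p = 0.0367). Among the differences between changes, Slc25a33 and Slc25a35 at the first step and Slc25a14 and Slc25a51 at the second were not called under the block. Their edgeR adjusted p ran from 0.0633 to 0.124. The falls of Slc25a23 and Slc25a40 from 2-cell to 4-cell in the second series were also not called under it (edgeR adjusted p = 0.0621 and 0.102). With DESeq2 and RLE factors, Slc25a3 in IVF against first-series embryos turned to -0.015 (both) at the 4-cell stage and -0.026 (both) at the morula, and Slc25a31 from 4-cell to morula in IVF embryos turned to 0.287 and 0.285. These had not passed the threshold. Depth limits the carriers near 1 CPM.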
